A study of Mus musculus with 8 samples.

Results

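The genes described here are 42 genes of cholesterol, fatty acid and peroxisome proliferator-activated receptor (PPAR) biology, chosen by name and measured by RNAseq in regulatory T cells (Treg), either from bone marrow (BM-Treg) or from spleen (SP-Treg). All 42 were found among the 38215 genes of the deposited tables, and a further 59 lipid genes were read beside them. There were 4 BM-Treg and 4 SP-Treg libraries, each made from FoxP3+ cells sorted from untreated C57Bl/6 mice that carry a GFP reporter of FoxP3 and were 12 weeks old. By their labels, BM-Treg replicates 1 to 3 are female and of batch 1, while the spleen libraries and BM-Treg replicate 4 are male and of batch 3, so that BM-Treg replicate 4 alone separates tissue from batch and sex, and batch and sex cannot be told apart. The labels do not say whether a library came from 1 mouse or from pooled mice, and p-values measure the spread between these libraries.

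Cells make cholesterol from acetyl units through the mevalonate pathway and then a series of sterol intermediates. When sterols in the endoplasmic reticulum run low, the escort protein SCAP brings the SREBP transcription factors to the Golgi, where they are cut and released to the nucleus, and the INSIG proteins hold SCAP back when sterols are plentiful. SREBP2 acts mainly on genes of cholesterol synthesis and uptake, SREBP1 mainly on fatty acid synthesis, and the liver X receptors (LXR) turn on cholesterol efflux. Treg of visceral fat are known for their dependence on PPARγ, which promotes fatty acid uptake and storage, and Treg in general have been linked to fatty acid oxidation and to the mevalonate pathway.

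Total expected counts on genes were between 12427136 and 21921252 per library. Levels of a gene in single libraries are given below as CPM (counts scaled to library size, with TMM normalization), and levels of different genes are compared only as FPKM, which are corrected for transcript length. The 7 Treg marker genes summed to between 7457 and 8855 CPM in BM-Treg and between 8158 and 8957 CPM in SP-Treg, and Foxp3 was at 1272 CPM or more in every library. Of 5 adipocyte markers, all stayed below 1 CPM in every library, and Lep was at 0 in all 8. Summed CPM of 7 neutrophil and myeloid precursor genes was 1.31 to 9.86 in BM-Treg and 0.216 to 16.9 in SP-Treg. For 8 monocyte and macrophage genes the sums were 14.3 to 21.1 and 14.6 to 36.5, and for 5 platelet and megakaryocyte genes 0.741 to 2.67 and 0.647 to 1.76. Of these 8 only Vcam1 was called, lower in BM-Treg (log2 fold change -2.92, edgeR adjusted p = 0.00222). For 4 pDC genes the sums were 38.0 to 51.5 and 16.9 to 51.7. Ccr9 (means 34.8 and 26.1 CPM) and Bst2 (8.25 and 10.3) made up most of them. Siglech and Cox6a2 were below 1 CPM in every library. The sums of 7 erythroid genes were 15.2 to 33.9 in BM-Treg and 2.51 to 461.4 in SP-Treg, and those of 5 B and plasma cell genes were 10.4 to 13.5 and 6.83 to 86.8, both highest among SP-Treg replicates 2 to 4. The sums of 5 proliferation genes overlapped, at 802.1 to 1780.4 and 1232.8 to 1552.1. Fewer cells of a type and less RNA per cell cannot be told apart in such bulk samples.

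Most of the lipid genes were at similar levels in the 2 tissues. Of the 42 members, 40 passed the expression filter of edgeR. Of these 40, 2 were higher in BM-Treg (Srebf2 and Pcyt1a), 1 was lower (Scd2), and 37 did not pass the adjusted p threshold of 0.05 of edgeR's quasi-likelihood test. The share of members called was 7.5%, beside 8.75% of all 13397 genes tested. In the higher direction it was 5.0% of members beside 3.72% of all genes, and in the lower direction 2.5% beside 5.02%. The share of members called was thus close to that of all genes. The median log2 fold change (BM-Treg over SP-Treg) was 0.08 over the 40 members and -0.01 over all genes tested, and 33 of the 40 were within 0.5 of 0 on the log2 scale. The 4 libraries of one tissue lay entirely above or below those of the other for 6 of the 40 (Lss, Srebf1, Srebf2, Scd2, Pparg and Pcyt1a), or 15.0%, beside 16.2% of all genes tested.

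**Figure D1:**
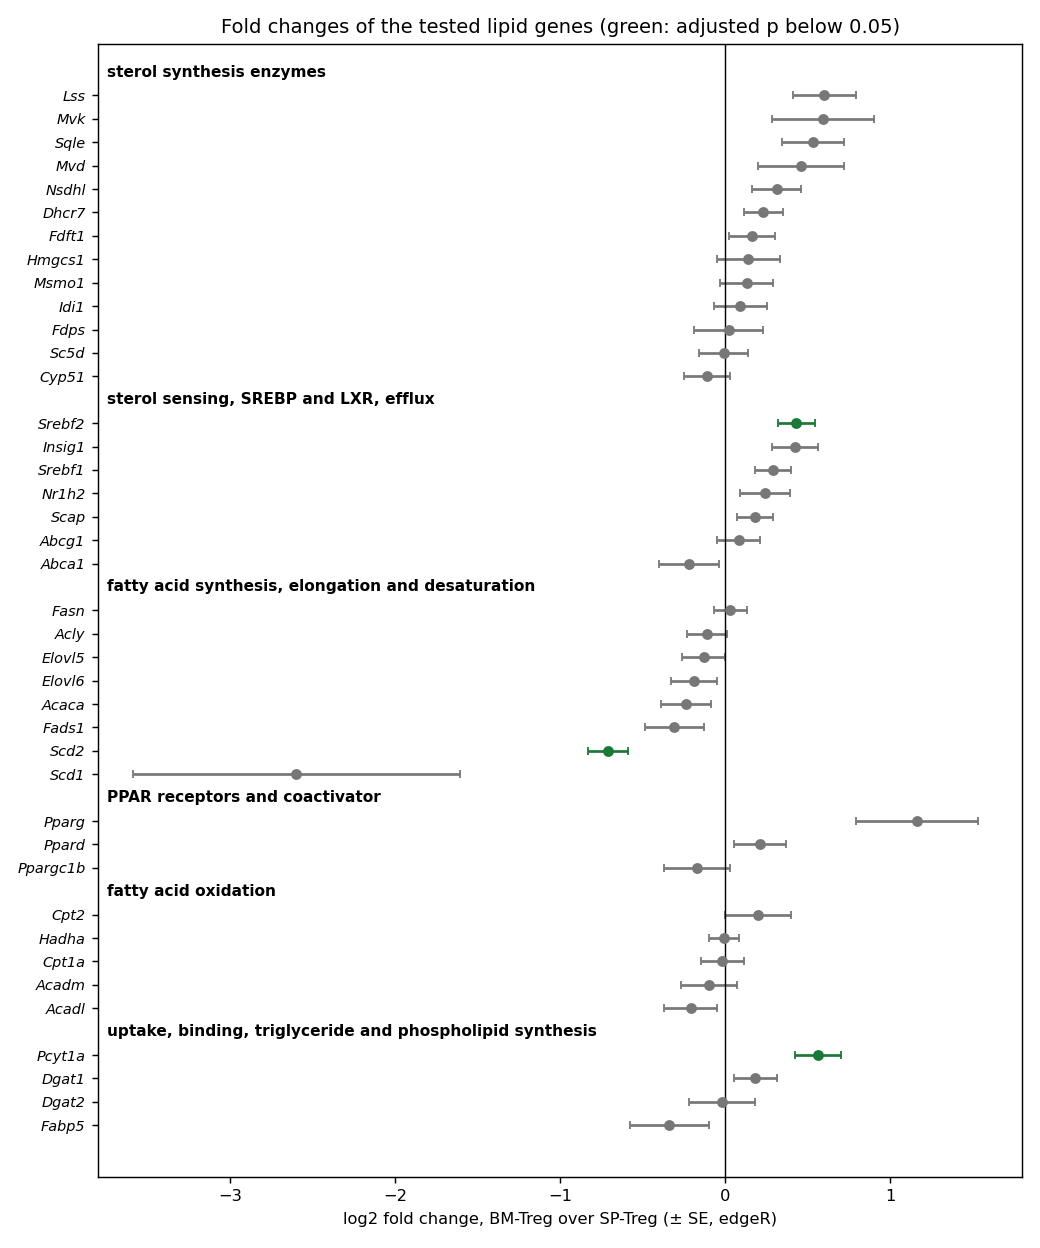
Log2 fold change of BM-Treg over SP-Treg (x axis, points, with bars of ± 1 SE from edgeR, 4 libraries per tissue) for the 40 lipid genes that passed the filter, grouped by role. Green points are the 3 genes with an adjusted p below 0.05. Most genes lie within 0.5 of 0, and Scd1 has by far the widest bar.

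SREBPs bind sterol regulatory elements, and Srebf2 and Pcyt1a were the members called higher, so the bases before their start sites are shown together with those of Hmgcs1, a member that was not called. The sequences are from RefSeq (GRCm38.p6, plus strand, each 250 bases ending just before the start site). Capitals mark the core of a sterol regulatory element, searched as TCACNCCAC on both strands.
Srebf2, chr15:82147019-82147268: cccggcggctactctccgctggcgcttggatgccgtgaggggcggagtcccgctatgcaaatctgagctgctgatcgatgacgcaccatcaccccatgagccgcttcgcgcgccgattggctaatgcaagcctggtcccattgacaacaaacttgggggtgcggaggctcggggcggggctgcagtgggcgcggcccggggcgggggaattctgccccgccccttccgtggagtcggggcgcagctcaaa
Pcyt1a, chr16:32430671-32430920: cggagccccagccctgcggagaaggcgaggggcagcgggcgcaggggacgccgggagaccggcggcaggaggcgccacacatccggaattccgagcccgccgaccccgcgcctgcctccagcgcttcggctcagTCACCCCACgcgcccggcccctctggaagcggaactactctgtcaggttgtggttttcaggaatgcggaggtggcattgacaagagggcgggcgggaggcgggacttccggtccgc
Hmgcs1, chr13:119690101-119690350: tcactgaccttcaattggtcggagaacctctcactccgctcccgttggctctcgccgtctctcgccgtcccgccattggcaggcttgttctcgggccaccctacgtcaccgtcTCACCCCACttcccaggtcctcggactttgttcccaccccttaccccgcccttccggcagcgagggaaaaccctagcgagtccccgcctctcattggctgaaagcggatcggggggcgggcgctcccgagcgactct
The core began 116 bases before the start of Pcyt1a, at chr16:32430805-32430813, and 137 bases before that of Hmgcs1, at chr13:119690214-119690222. The Srebf2 stretch held no exact match to these letters. It did hold tcaccccat, which differs from the core searched only in its last base, and an exact search passes over such variants. Of the 42 members, 31 had a window in the promoter table (250 bases before to 50 after a start), and these 2, or 6.45%, held the core, beside 388 of 27025 genes in the table, or 1.44%. Direct repeats of AGGTCA, the half-site of nuclear receptors, were searched on both strands with 1 base between them (the PPAR type) and with 4 bases between them (the LXR type). No member held either, and 0.0481% and 0.0148% of all genes did. Exact repeats are so rare among all genes that their absence from 31 members says nothing about these members. A match of letters is a description of the sequence, and no binding was measured here.

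Srebf2, which encodes SREBP2, was higher in BM-Treg (gene ENSMUSG00000022463, GRCm38 chr15:82147266-82205376). Its CPM was 152.7, 118.7, 128.1 and 134.6 in BM-Treg replicates 1 to 4 and 97.9, 111.9, 93.7 and 93.2 in SP-Treg replicates 1 to 4. The tissues did not overlap, and SP-Treg replicate 2 lay closest to the BM-Treg range. The means were 133.5 ± 14.3 and 99.2 ± 8.75 CPM (SD, n = 4), a fold of 1.35 (log2 fold change 0.43, SE 0.11, edgeR adjusted p = 0.0213). Within batch 3, where BM-Treg has 1 library, the log2 fold change was 0.46. The call was lost on leaving out BM-Treg replicate 1, SP-Treg replicate 3 or SP-Treg replicate 4, with adjusted p between 0.0219 and 0.0533 over the 8 fits that leave out a library, and with batch as a term, where the log2 fold change was 0.44 with an adjusted p of 0.185. It was also lost in limma-trend on log2(FPKM + 1), at an adjusted p of 0.0541. The microRNA gene Mir33, which lies within Srebf2, was at 0 counts in every library. Reads of 80 nt are longer than a mature microRNA, so these counts do not show whether Mir33 was expressed.

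Insig1, whose product keeps SCAP and the SREBPs in the endoplasmic reticulum and which is itself an SREBP target, did not pass the threshold. In BM-Treg its CPM was 38.5, 31.8, 39.1 and 29.7, and in SP-Treg 22.5, 25.7, 30.4 and 25.2. The tissues overlapped by a single pair, BM-Treg replicate 4 and SP-Treg replicate 3. The log2 fold change was 0.42 (SE 0.14, edgeR adjusted p = 0.0666), and it was 0.21 within batch 3. Scap, which encodes the escort protein, had a log2 fold change of 0.18 at 20.2 FPKM (mean of 8 libraries).

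Srebf1, which encodes SREBP1, was at 37.2, 32.9, 37.3 and 32.1 CPM in BM-Treg and at 28.9, 28.8, 25.8 and 30.2 CPM in SP-Treg. Its libraries did not overlap between tissues, yet the difference was small, with a log2 fold change of 0.29 (SE 0.11, edgeR adjusted p = 0.128) and 0.19 within batch 3. Per length, Srebf2 and Srebf1 were close, at 23.8 and 23.2 FPKM. The split of Srebf1 reads among its transcripts varied within each tissue: the full-length transcript Srebf1-201 took 46.1, 36.7, 38.2 and 51.5% of the gene's expected counts in BM-Treg and 66.8, 41.5, 62.0 and 73.5% in SP-Treg. These shares overlapped between tissues, and their means were 43.2% ± 6.94 and 61.0% ± 13.8 (SD, n = 4). In CPM, Srebf1-201 averaged 15.0 ± 2.31 in BM-Treg and 17.4 ± 4.42 in SP-Treg, the other direction from the gene total. The shorter Srebf1-203 averaged 5.89 ± 4.2 and 2.16 ± 1.77 CPM. The split between transcripts is an estimate.

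On the efflux side, Nr1h2 encodes LXRβ, the receptor that senses oxysterols, and its log2 fold change was 0.24 at 28.2 FPKM. Abca1 exports cholesterol to lipid-poor apolipoprotein A-I. Its CPM was 27.3, 29.4, 22.8 and 24.7 in BM-Treg and 40.4, 33.2, 20.6 and 26.9 in SP-Treg, with the lowest and the highest value both in SP-Treg (log2 fold change -0.22, SE 0.18, edgeR adjusted p = 0.51). Abcg1, which exports cholesterol to HDL particles, was the most abundant member of the group per length, at 33.3 FPKM. Its CPM was 100.7, 119.1, 111.2 and 74.3 in BM-Treg and 106.0, 100.1, 84.9 and 92.3 in SP-Treg, and BM-Treg replicate 4 was below every other library. The log2 fold change of Abcg1 was 0.08 (SE 0.13, edgeR adjusted p = 0.766), and within batch 3 it was -0.35. Of the 7 genes of sterol sensing, SREBP, LXR and efflux, 1 was thus called higher (14.3%, beside 3.72% of all genes) and 0 lower. Their median log2 fold change was 0.24.

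None of the 13 enzymes of sterol synthesis was called, in either direction, by edgeR. An unadjusted p below 0.05 was found for 2 of them (Sqle and Lss), beside 3119 of all 13397 genes tested. The log2 fold changes of the 13 ran from -0.11 to 0.60, and 11 were above 0, beside 6517 of the 13397 genes. Cyp51 and Sc5d, which were below, turned above 0 on FPKM, where the median over all genes was 0.05. Sc5d, at 0.03 on FPKM, stayed below that median. As reported, the median of the 13 was 0.16 beside -0.01 over all genes. Within batch 3 the median was 0.36, beside -0.02 over all genes there, with 1 BM-Treg library and so no replicate of that tissue.

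Lss, lanosterol synthase, closes the ring system of the sterols. It was at 16.0, 14.9, 14.7 and 18.9 CPM in BM-Treg and at 8.41, 14.2, 11.6 and 8.37 CPM in SP-Treg. All BM-Treg libraries were above all SP-Treg libraries, SP-Treg replicate 2 by a narrow margin, and the log2 fold change was 0.60 (SE 0.19, edgeR adjusted p = 0.0646). It passed the threshold in 4 of 16 alternatives, among them DESeq2 (adjusted p = 0.0308) and the fit without SP-Treg replicate 2 (0.0282), while the other 7 fits that leave out a library did not pass (up to 0.151), nor did the fit with batch as a term (0.137) or batch 3 alone (0.245).

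Sqle, squalene epoxidase, catalyses the oxygen-dependent step just before Lss. Its CPM was 33.1, 20.0, 21.8 and 26.8 in BM-Treg and 13.9, 20.2, 21.8 and 14.7 in SP-Treg. The ranges overlapped, since SP-Treg replicates 2 and 3 reached the lower BM-Treg values (log2 fold change 0.53, SE 0.19, edgeR adjusted p = 0.103).

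Hmgcs1 makes HMG-CoA, an early intermediate of the mevalonate pathway. Its CPM was 19.8, 14.2, 16.3 and 26.5 in BM-Treg and 19.9, 18.0, 17.1 and 14.1 in SP-Treg. BM-Treg replicate 4 was the highest of all 8 libraries and the other BM-Treg libraries lay among SP-Treg, so that the log2 fold change of 0.14 (SE 0.19, edgeR adjusted p = 0.695) was 0.63 within batch 3 and -0.04 without BM-Treg replicate 4.

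Of the other 10 enzymes, Mvk and Mvd phosphorylate and decarboxylate mevalonate, and their log2 fold changes were 0.59 (edgeR adjusted p = 0.265) and 0.46 (0.302), at 1.82 and 4.62 FPKM. In the isoprenoid and squalene steps, Idi1, Fdps and Fdft1 had log2 fold changes of 0.09, 0.02 and 0.16 at 6.18, 5.99 and 11 FPKM. The later sterol steps are served by Cyp51, Msmo1, Nsdhl, Sc5d and Dhcr7. Their log2 fold changes were -0.11, 0.13, 0.31, -0.01 and 0.23, at 15.3, 6.75, 12.1, 8.39 and 11.5 FPKM. None of these 10 had an adjusted p below 0.24. Stretches of 80 bases shared with other genes, on either strand, made up 23.2% of Idi1, 23.1% of Fdps and 21.0% of Fdft1 transcripts. Reads from a shared stretch can be divided between the genes that hold it.

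**Figure D2:**
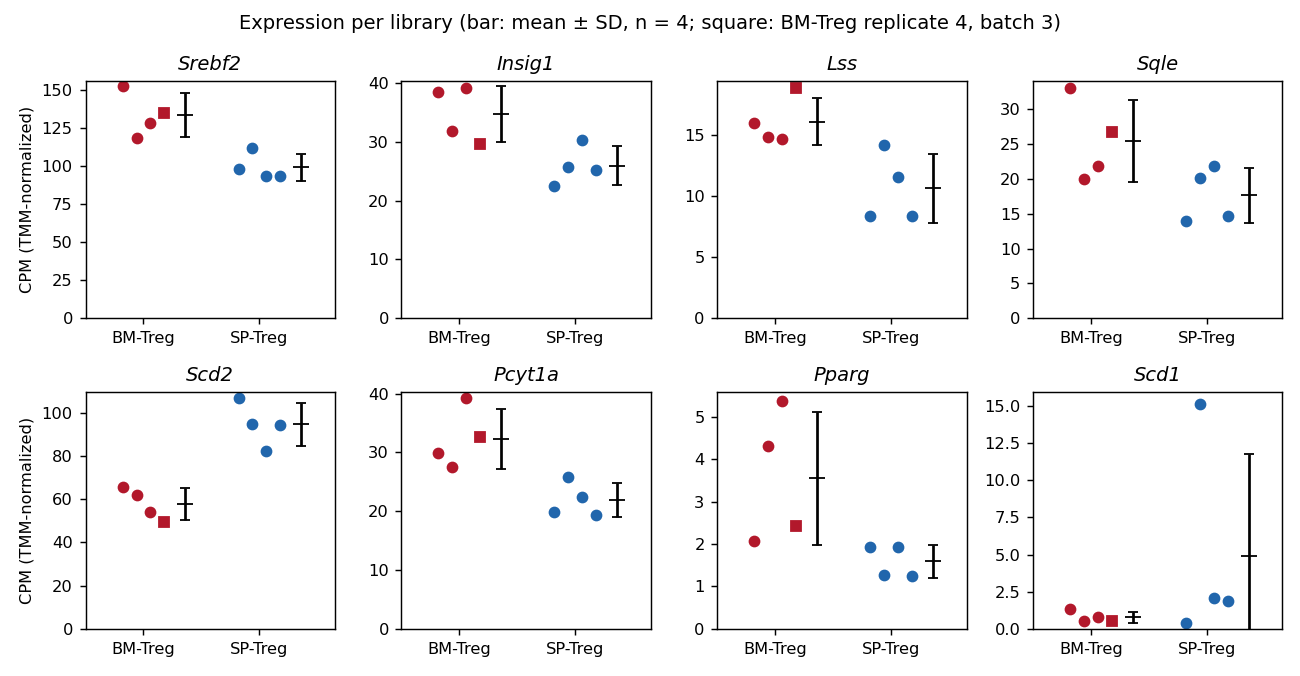
CPM (y axis, from 0) of 8 lipid genes in each library of BM-Treg (red) and SP-Treg (blue), with the mean ± SD of 4 libraries in black and BM-Treg replicate 4, the BM-Treg library of batch 3, as a square. Srebf2, Pcyt1a and Scd2 separate fully between tissues, as do Lss and Pparg by a narrower gap, and 1 SP-Treg library carries most of the Scd1 signal (its lower SD bar is clipped at 0).

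Among genes of fatty acid synthesis, the one called was Scd2, a stearoyl-CoA desaturase that makes monounsaturated fatty acids in most tissues other than adult liver (ENSMUSG00000025203, GRCm38 chr19:44293676-44306864). Scd2 was at 65.5, 61.7, 54.2 and 49.4 CPM in BM-Treg and at 106.8, 94.9, 82.3 and 94.1 CPM in SP-Treg. No BM-Treg library came near the lowest SP-Treg library. The means were 57.7 ± 7.25 and 94.5 ± 10 CPM (SD, n = 4), a fold of 0.611 (log2 fold change -0.71, SE 0.12, edgeR adjusted p = 0.00218). Scd2 was the member with the steadiest call: it stayed below 0.05 in each of the 8 fits that leave out a library, with adjusted p between 0.00243 and 0.00933, and with batch as a term, where the log2 fold change was -0.94 and the adjusted p 0.0274. Within batch 3 the log2 fold change was -0.92, with an adjusted p of 0.0808 for 1 library against 4. On log2(FPKM + 1) in limma-trend it was -0.60 with an adjusted p of 0.0542. Mir5114, a microRNA gene within Scd2, was at 0 counts in every library, which for the same reason as for Mir33 does not show whether it was expressed.

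Scd1, the form that predominates in liver and fat, was scarce in most libraries. Its CPM was 1.31, 0.509, 0.832 and 0.501 in BM-Treg and 0.431, 15.1, 2.09 and 1.91 in SP-Treg. The SP-Treg values ranged from the lowest to the highest of all 8, and SP-Treg replicate 2 stood apart. The log2 fold change was -2.60 with an SE of 0.99 (edgeR adjusted p = 0.158). Without SP-Treg replicate 2 it was -0.88 (adjusted p = 0.432), and with the replicate block it was -1.73. SP-Treg replicate 2 was also the library in which the 5 B and plasma cell markers summed highest, at 86.8 CPM beside 6.83, 26.6 and 18.6 in the other SP-Treg libraries. The same library was also the highest of all 8 for the neutrophil and myeloid precursor genes, at 16.9 CPM, and for the monocyte and macrophage genes, at 36.5 CPM, and it was the highest of the SP-Treg libraries for the adipocyte genes, at 0.558 CPM. The part of these cells in the Scd1 value was not tested. Scd2 showed no such excess in that library.

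**Figure D3:**
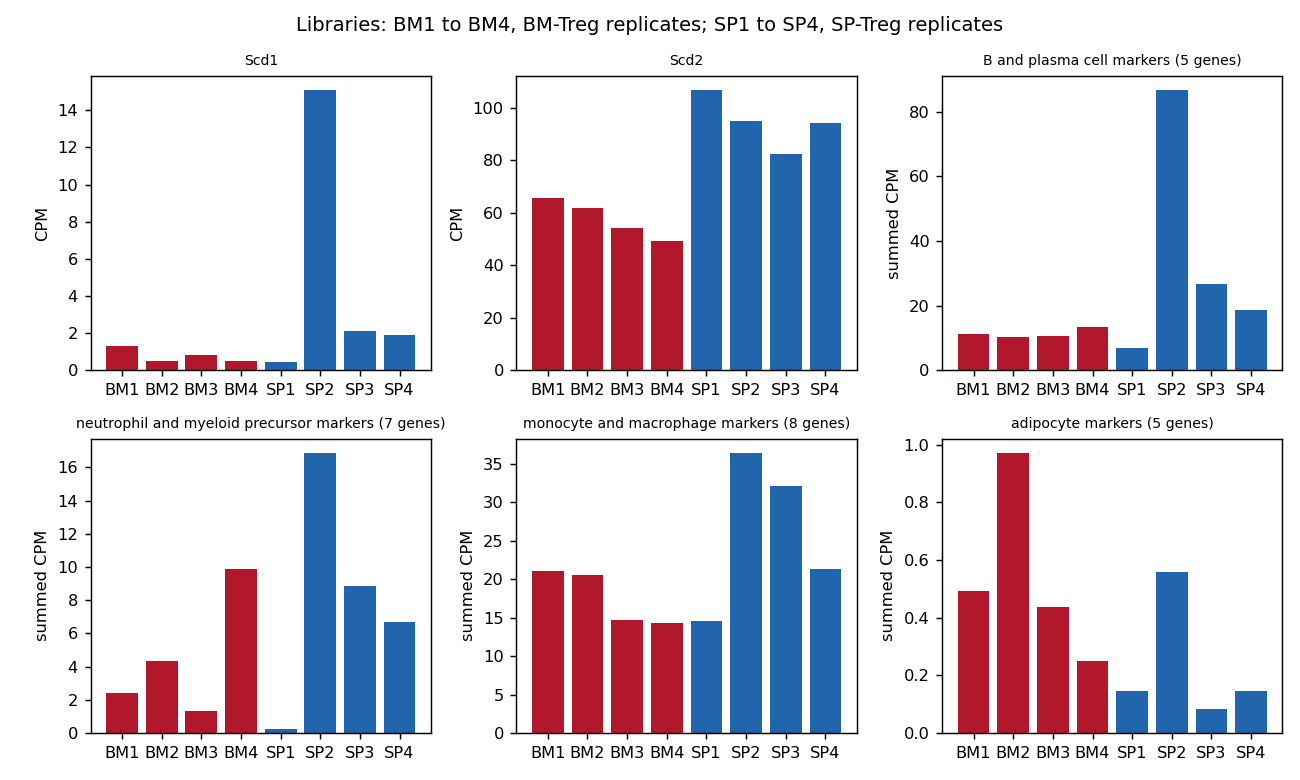
CPM of Scd1 and Scd2 and the summed CPM of 4 marker lists (y axes, from 0) in each library (x axis: BM1 to BM4 are BM-Treg replicates in red, SP1 to SP4 SP-Treg replicates in blue). Scd1 and the B and plasma cell, neutrophil and myeloid precursor, and monocyte and macrophage markers are all highest in SP-Treg replicate 2, while Scd2 is lower in the 4 BM-Treg libraries than in the 4 SP-Treg libraries.

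Fasn, which builds palmitate, hardly differed. Its CPM was 88.2, 90.3, 90.3 and 79.1 in BM-Treg and 91.5, 81.6, 89.6 and 79.1 in SP-Treg, and the 2 sets of values covered the same range (log2 fold change 0.03, SE 0.10, edgeR adjusted p = 0.908). Acly supplies its acetyl-CoA in the cytosol and Acaca turns that into malonyl-CoA, and their log2 fold changes were -0.11 and -0.24, at 68.8 and 3.24 FPKM. For Acaca, 26.1% of 80-base stretches were shared with other genes. The elongases Elovl5 and Elovl6 had log2 fold changes of -0.13 and -0.19. Elovl5 was the most abundant of all members per length, at 89.6 FPKM, and Elovl6 was at 5.61. The Δ5 desaturase Fads1 was at 5.09 FPKM with a log2 fold change of -0.31. Fads2, the Δ6 desaturase, did not pass the filter: it had 7 counts in all, was at 0 in BM-Treg replicates 1 to 3 and SP-Treg replicates 1 and 2, and reached 0.334, 0.167 and 0.0734 CPM in BM-Treg replicate 4 and SP-Treg replicates 3 and 4 (exact two-sided permutation test of the mean CPM, p = 1.0). At this depth no difference in Fads2 could be detected. Of the 8 genes of this group that were tested, 0 were called higher and 1 lower, or 12.5% beside 5.02% of all genes called lower. Of these 8, 7 were below 0, and the median log2 fold change was -0.22. On FPKM, where the median over all genes was 0.05, Acly turned above 0 and Fasn below.

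Pparg had the largest positive log2 fold change of the members at a low level. It was at 2.08, 4.31, 5.38 and 2.42 CPM in BM-Treg and at 1.94, 1.27, 1.92 and 1.25 CPM in SP-Treg. The tissues did not overlap, but BM-Treg replicates 1 and 4 were close to the upper SP-Treg values and BM-Treg replicates 2 and 3 were higher. The means were 3.55 ± 1.57 and 1.60 ± 0.387 CPM (SD, n = 4), with a log2 fold change of 1.16 (SE 0.37, edgeR adjusted p = 0.0677), and 0.62 within batch 3. The test passed the threshold in 3 of 16 alternatives, among them DESeq2 (adjusted p = 0.0349), and the range of adjusted p over these was 0.0349 to 0.661. The 5 adipocyte markers, each below 1 CPM in every library, summed to 0.251 to 0.973 CPM in BM-Treg and 0.0836 to 0.558 CPM in SP-Treg. The monocyte and macrophage markers, whose cells can express Pparg, summed to 21.1 CPM or less in BM-Treg and up to 36.5 CPM in SP-Treg. Pparg itself was at only a few CPM, and the part of such cells in its value was not tested. Of the gene's reads, Pparg-202 took 30.8, 87.2, 100 and 100% in BM-Treg and 0, 100, 37.6 and 0% in SP-Treg. With so few reads the split between the transcripts swung from one extreme to the other within a tissue, and no tissue difference in isoform could be read from it.

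Ppard encodes PPARδ, a driver of fatty acid oxidation genes. Its CPM was 13.7, 15.1, 19.4 and 15.3 in BM-Treg and 11.8, 13.3, 16.4 and 13.5 in SP-Treg, and the ranges overlapped (log2 fold change 0.21, SE 0.16, edgeR adjusted p = 0.473). Per length it was above Pparg, at 7.65 beside 1.49 FPKM. Ppargc1b encodes PGC-1β, a coactivator of the PPARs and of SREBP1. It was at 10.1, 7.41, 6.52 and 6.52 CPM in BM-Treg and at 8.12, 10.1, 8.69 and 7.56 CPM in SP-Treg, without separation (log2 fold change -0.17, SE 0.20, edgeR adjusted p = 0.653). None of these 3 genes was called.

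The 5 genes of fatty acid oxidation stayed close together in the 2 tissues. Cpt1a, which passes long-chain fatty acids to mitochondria and is the usual rate-limiting step, was at 82.1, 71.4, 93.4 and 99.3 CPM in BM-Treg and at 105.4, 84.4, 81.9 and 78.2 CPM in SP-Treg. Its ranges overlapped almost entirely, and the log2 fold change was -0.02 (SE 0.13, edgeR adjusted p = 0.954). Cpt2, its partner at the inner membrane, had a log2 fold change of 0.20 at 5.69 FPKM. Of the acyl-CoA dehydrogenases, Acadl had -0.21 at 11.8 FPKM and Acadm -0.10 at 7.11 FPKM. Hadha, the α subunit of the trifunctional protein, was the most abundant per length at 69.6 FPKM, with a log2 fold change of -0.01 and an SE of 0.09. Within this group 0 of 5 genes had an unadjusted p below 0.05, beside 3119 of all 13397 genes tested. DESeq2 called 0 of the 5 as well, beside 12.7% of all genes, and the median log2 fold change was -0.02.

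In uptake and storage, Pcyt1a was higher in BM-Treg (ENSMUSG00000005615, GRCm38 chr16:32430921-32475070). It encodes CCTα, the enzyme that sets the pace of phosphatidylcholine synthesis. Stretches of 80 bases shared with other genes made up 6.91% of its transcripts. Its CPM was 29.9, 27.5, 39.3 and 32.7 in BM-Treg and 19.9, 25.8, 22.4 and 19.4 in SP-Treg. The lowest BM-Treg library was just above SP-Treg replicate 2. The means were 32.3 ± 5.10 and 21.9 ± 2.92 CPM (SD, n = 4), a fold of 1.48 (log2 fold change 0.56, SE 0.14, edgeR adjusted p = 0.0247), and the log2 fold change within batch 3 was 0.60. The call was lost without BM-Treg replicate 3, without SP-Treg replicate 1 and without SP-Treg replicate 4 (adjusted p 0.0219 to 0.0885 over the 8 fits that leave out a library), with batch as a term (0.191) and in limma-trend on log2(FPKM + 1) (0.0501).

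By the estimated split of reads, Pcyt1a also differed in its transcripts. Pcyt1a-201 begins with exon 1 at chr16:32430924-32431031, and Pcyt1a-202 begins further into the gene, with an exon 1 of 46 bases at chr16:32431249-32431294. The annotation (GENCODE M21, GRCm38) gives both the same exons 2 to 8, and exon 9 ends at 32475070 in Pcyt1a-201 and at 32471618 in Pcyt1a-202. Pcyt1a-202 was given 60.2, 90.3, 60.2 and 134 expected counts in BM-Treg replicates 1 to 4 and 0 in each SP-Treg library. In CPM this was 3.3, 4.18, 2.64 and 11.2 in BM-Treg. Its share of the gene was 11, 15.2, 6.71 and 34.2% in BM-Treg, largest in BM-Treg replicate 4, the library of the same batch as SP-Treg. The mean share of 16.8% ± 12.1 (SD, n = 4) is below the 20% by which transcripts were to be described, and Pcyt1a-202 was chosen after its values were seen. Pcyt1a-201 made up 80, 78, 86.2 and 61.1% of the gene in BM-Treg and 97.0, 93.8, 96.6 and 96.7% in SP-Treg. The CPM of Pcyt1a-201 alone was 24.8 ± 6.23 in BM-Treg and 21.0 ± 2.48 in SP-Treg (SD, n = 4). Of 92351 transcripts in the tables, 7 had at least 50 counts in every BM-Treg library and 0 in every SP-Treg library, and 2 had the reverse. The 92351 include transcripts without reads, and the minimum of 50 lies below the lowest BM-Treg value of Pcyt1a-202. These counts thus cannot say how unusual its pattern is. Since the reads are single-end and the transcripts share most exons, the split between them is an estimate, and no junction reads were examined.

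**Figure D4:**
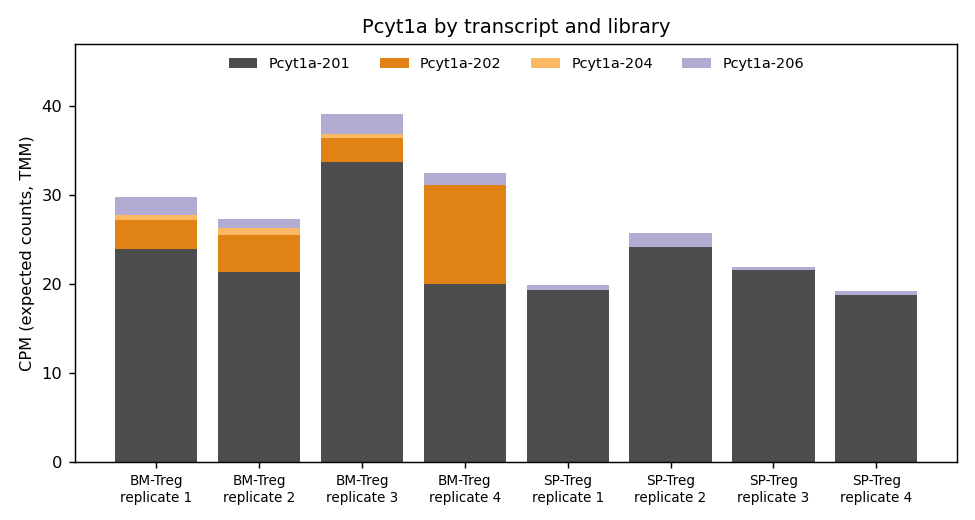
CPM of the Pcyt1a transcripts with at least 10 expected counts in a library (y axis, stacked) in each of the 8 libraries (x axis). Pcyt1a-202 (orange) is present in the 4 BM-Treg libraries and at 0 in the 4 SP-Treg libraries, while Pcyt1a-201 (dark grey) overlaps between tissues.

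Cd36, the fatty acid translocase that marks lipid uptake in Treg of fat, was nearly absent and did not pass the filter. It was at 0.547, 0.0, 0.175 and 0.0 CPM in BM-Treg and at 0.0, 0.558, 0.919 and 0.44 CPM in SP-Treg, with 38 counts in all 8 libraries together. The means of 0.181 ± 0.258 and 0.479 ± 0.379 CPM (SD, n = 4) did not differ beyond the spread (p = 0.286 by exact permutation, two-sided, where 4 against 4 libraries cannot go below 0.0286). Fabp5, a fatty acid binding protein of the cytosol, was at 6.62, 6.35, 9.89 and 8.35 CPM in BM-Treg and at 8.91, 6.61, 9.45 and 14.5 CPM in SP-Treg. Only SP-Treg replicate 4 lay above the BM-Treg range (log2 fold change -0.34, SE 0.24, edgeR adjusted p = 0.434). Dgat1 and Dgat2, which complete triglyceride synthesis, had log2 fold changes of 0.18 and -0.02 at 28.0 and 5.67 FPKM.

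Of the 59 other lipid genes, 47 passed the filter, 1 was higher in BM-Treg and 1 was lower, or 4.26% beside the 8.75% of all genes, and their median log2 fold change was 0.08. Pnpla2, the triglyceride lipase of lipid droplets, had a log2 fold change of 0.47 (SE 0.11, edgeR adjusted p = 0.0153). The call of Pnpla2 held in 13 of 16 alternatives. Among the settings that lost it were batch as a term, where the log2 fold change was 0.51 (adjusted p = 0.125), and the fit without BM-Treg replicate 3 (adjusted p = 0.0511). Acsl5, which activates long-chain fatty acids, was lower in BM-Treg, with a log2 fold change of -0.63 (SE 0.13, edgeR adjusted p = 0.00674) and -0.43 within batch 3. The call of Acsl5 held in 13 of 16 alternatives, among them all 8 fits that leave out a library. One that lost it was batch as a term, where the log2 fold change was -0.45 (adjusted p = 0.252). Of the other PPAR pathway genes, Ppara, Ppargc1a, Pdk4, Fabp4 and Lpl did not pass the filter, and Plin2, a lipid droplet coat protein and PPAR target, had a log2 fold change of -0.66 (edgeR adjusted p = 0.0662).

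**Figure D5:**
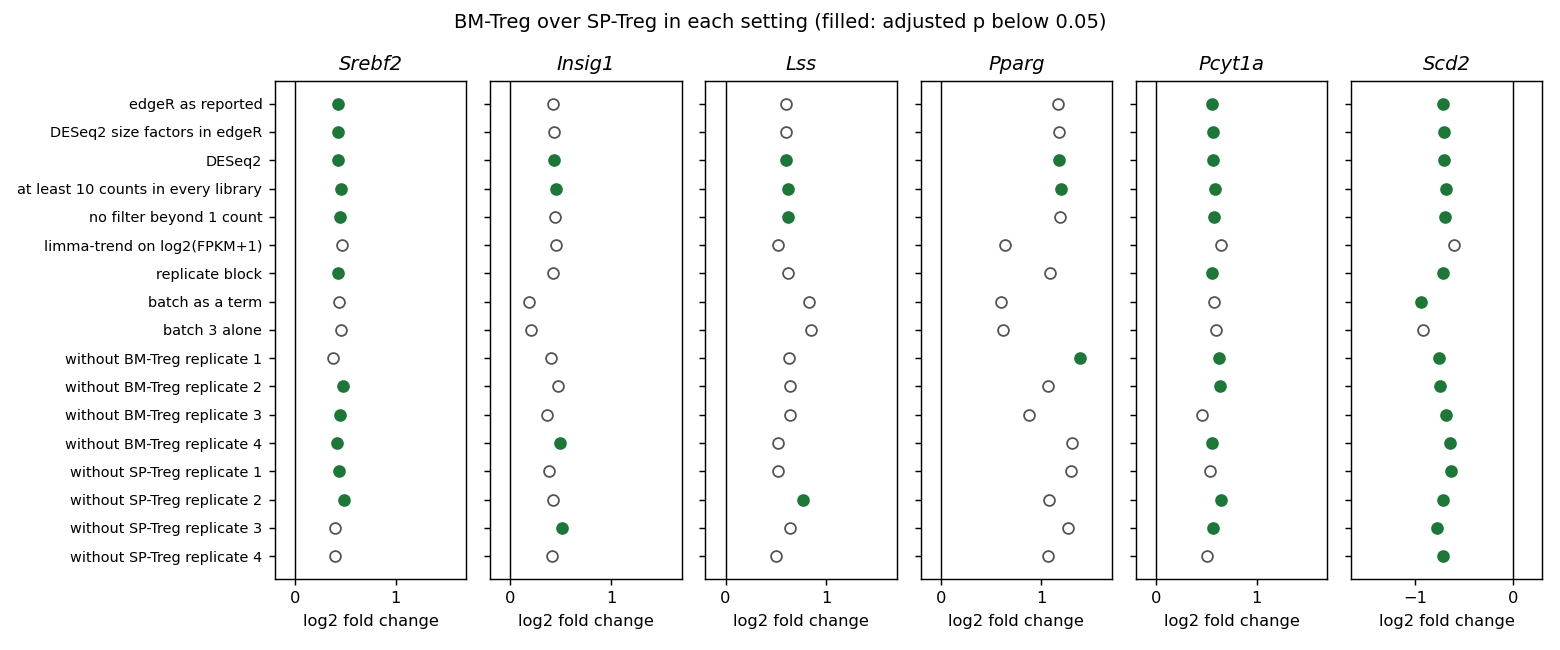
Log2 fold change of BM-Treg over SP-Treg (x axis) of 6 lipid genes under the test as reported, 8 other settings and the 8 fits that leave out a library (y axis). Filled points have an adjusted p below 0.05. Every point of the 5 genes on the left is above 0 and every point of Scd2 is below 0, while the calls of Srebf2 and Pcyt1a, and more so of Insig1, Lss and Pparg, come and go.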

How the data were processed

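RNA of sorted Treg underwent SPIA amplification without molecular identifiers, and single-end reads of 80 nt were obtained. The submitters' processing notes name cutadapt 1.9, STAR 2.5.2a, RSEM 1.2.30 and the genome build GRCm38. The authors deposited expected counts (estimated reads per gene and per transcript, which need not be whole and are not normalized between libraries) and, in a second table, FPKM values, in which the authors divided these counts by transcript length and depth. Every column matched a library by name (0 left over), and the replicates of a tissue were not duplicates (chi-square per degree of freedom 14.6 to 88.5 among genes averaging 50 or more counts).

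Expected counts were rounded, filtered with filterByExpr, scaled by TMM and tested with edgeR 4.0.16 (robust quasi-likelihood, R 4.3.3) without covariates. P-values were adjusted by Benjamini-Hochberg over all genes tested, with a threshold of 0.05. The SE was taken from the log2 fold change and its F statistic. Members below the filter were compared by exact permutation tests (SciPy 1.17.1). DESeq2 1.42.0 and limma 3.58.1 were alternatives. Transcripts with a mean share of at least 20% of the gene's expected counts in a tissue were to be described for the members called and for Srebf1 and Pparg, and Pcyt1a-202 was added after its values were seen. The members, gene lists and rule for the genes named were chosen with earlier results of these data known: each member is given once by role and level, and in full if called or if it was among 16 genes listed by name. Lss was added to these after its values were seen. Another 3 genes of the lipid and marker lists are not reported here and were left out of the lists' counts and sums after the results had been seen, though not on account of their values, so that these counts and sums are not those of the full lists; the tests across all genes include them.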

Additional observations from a re-analysis of the deposited data

Results flagged for a closer look

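In 8 of 102 groups of 4 values (42 members and 9 marker lists in each tissue), 1 library stood far from the other 3 by Dixon's test, and chance gives about 1 in 20. The largest gap in CPM among weakly expressed members was that of Scd1, at 15.1 in SP-Treg replicate 2 beside 0.431 to 2.09 in the other SP-Treg libraries. BM-Treg replicate 4 was low for Sc5d, at 13.6 CPM beside 18.3 to 19.1, and high for Dgat1, at 30.8 CPM beside 23.6 to 24.8. It also held the BM-Treg reads of Fads2, at 0.334 CPM beside 0. BM-Treg replicate 1 was low for Mvk, at 2.35 CPM beside 3.84 to 4.12, and BM-Treg replicate 3 was high for Acadl, at 24.2 CPM beside 18.4 to 19.0. SP-Treg replicate 4 was low for Acly, at 98.8 CPM beside 127.3 to 130.5. The summed adipocyte markers were at 0.558 CPM in SP-Treg replicate 2 beside 0.0836 to 0.147. None of these genes passed the adjusted p threshold between tissues.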

How the results depend on the processing

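Against 2 members called higher and 1 called lower, with 8.75% of all genes called, DESeq2 gave 5 and 1, with 12.7% of all genes. A minimum of 10 counts in every library gave 5 and 1 (10.4% of all genes), and no filter beyond 1 count gave 4 and 1 (5.74%). DESeq2's size factors in edgeR gave 2 and 1 (8.64%). Batch as a term gave 0 higher and 1 lower (edgeR, 1.93% of all genes, with 9 members at an unadjusted p below 0.05). Batch 3 alone gave 0 and 0 (edgeR, 7 at an unadjusted p below 0.05, and 79 genes called in all), and limma-trend on log2(FPKM + 1) gave 0 and 0 (12 at an unadjusted p below 0.05). Of all genes, limma-trend called 4.5%. Leaving out 1 library gave 0 to 3 higher and 1 lower each time, with 5.07 to 7.63% of all genes called. It gave 0 higher without SP-Treg replicate 4 (where 12 members had an unadjusted p below 0.05) and 1 without BM-Treg replicate 3 or SP-Treg replicate 1. In the fit as reported, 9 of 40 members and 3119 of all 13397 genes had an unadjusted p below 0.05. That number of all genes is not given for the other settings. Where an arm is left with 1 library, it is assumed to vary like the other tissue.

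The same replicate numbers do not mark shared animals in the labels, and deviations of same-numbered libraries from their tissue means had correlations of -0.106, 0.0595, -0.176 and 0.0398. With the replicate block, 2 members were called higher and 1 lower, and 948 genes in all beside 1172. All 3 calls held.

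Over 638 pairs of a member and a setting, 565 kept direction and side of the threshold, 14 lost the call, 12 gained it and 47 turned in sign, in 12 members whose log2 fold change was between -0.19 and 0.14 as reported. With batch 3 alone and with batch as a term, the log2 fold change became -0.35 and -0.37 for Abcg1, -0.09 and -0.11 for Fasn, 0.13 and 0.12 for Cyp51, 0.10 and 0.08 for Acly, 0.09 and 0.07 for Elovl6, 0.20 and 0.18 for Cpt1a, and 0.04 and 0.02 for Hadha. On log2(FPKM + 1) it became 0.32 for Cyp51, 0.12 for Acly, 0.08 for Hadha, 0.05 for Cpt1a, 0.03 for Sc5d, 0.01 for Acadm and Dgat2, and -0.03 for Fasn. In that setting the median over all genes was 0.05, beside -0.01 as reported. With the 10-count and 1-count filters it was 0.01 and 0.0. With at least 10 counts the log2 fold change became 0.02 for Sc5d and Hadha and 0.01 for Cpt1a and Dgat2. With no filter beyond 1 count it became 0.01 for Sc5d and Hadha and 0.00 for Cpt1a and Dgat2. Over the fits that leave out a library, the range was -0.04 to 0.27 for Hmgcs1, -0.06 to 0.16 for Fdps, -0.06 to 0.09 for Sc5d, 0.00 to 0.20 for Abcg1, -0.01 to 0.08 for Fasn, -0.09 to 0.10 for Cpt1a, -0.03 to 0.05 for Hadha and -0.26 to 0.12 for Dgat2. The difference in mean CPM of Fads2 ran from -0.0601 (without BM-Treg replicate 4) to 0.0591. That of Cd36 kept its sign. The cause of these changes was not tested. Depth limits Fads2 and Cd36, and batch and sex limit every comparison of the tissues.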
